A study of Mus musculus with 6 samples.

Results

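Chromatin accessibility was examined at the loci of the Arid3 family, the 3 genes Arid3a, Arid3b and Arid3c of 55413 genes in the mouse annotation, in ATAC-seq of intestinal crypts. A locus was the gene body plus 10 kb on either side, and a peak belonged to it when its summit, the base with most fragments, lay inside. Merging the peaks of the 6 samples wherever they shared a base gave 16 consensus peaks at the loci of 71286 in the genome, 9 at Arid3a, 3 at Arid3b and 4 at Arid3c. Peaks were numbered along each locus in the direction of transcription.

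The study deleted Arid3a and asked how chromatin accessibility changed. The 6 samples were crypts, 3 from WT and 3 from Arid3a cKO (VillinCre-ERT2+/-; Arid3a fl/fl) mice, all injected with tamoxifen on 3 consecutive days and collected 1 month after the first injection. The Villin promoter restricted the tamoxifen-activated Cre to intestinal epithelium, so stromal cells keep Arid3a, and the sources used here do not give the Cre status of the WT animals or the ages. The titles number the samples 1 to 3 per genotype without saying that each number is a separate animal, so the p-values below measure the spread between samples, which may in part be technical. Each list held 40492 to 58297 peaks, at an estimated coverage of 1.75 to 2.29 fragments per base. Of 10 epithelial marker genes, 9 had a peak at the promoter in every list and Krt20 in that of WT 2 alone. A promoter peak stood at 0 of 8 immune marker genes in any list, and at 2 of 6 stromal and endothelial genes (Col1a1 and Pdgfra). Promoters can be open in cells that do not transcribe the gene, so these calls describe the lists and not the cell content.

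ARID3 proteins bind DNA rich in A and T through the AT-rich interaction domain, and the 3 members share an extended form of that domain and a REKLES region through which they associate with each other. ARID3A was first known in B cells, where it raises transcription of the immunoglobulin heavy chain, and ARID3B and ARID3C are its closest relatives. In ATAC-seq a transposase tags open DNA, so a peak at a promoter or in an intron marks an accessible site but does not say which factor holds it open or whether the gene is transcribed.

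The Arid3a primers of the study are shown first because they place the genotyped site and the measured transcript on the gene. Arid3a (ENSMUSG00000019564.12) occupies chr10:79927043-79955018 on the plus strand of GRCm38, and transcript ENSMUST00000019708.11 has 9 exons. The genotyping primers each matched the genome at 1 place, both in intron 3, and enclosed 354 bp of reference sequence at chr10:79945857-79946210 that ended 274 bp before exon 4. The transcript primers lay in exon 7 and exon 9 and enclosed 403 bases of the spliced transcript. The segment between the loxP sites is not given in the sources used here, so the amplicon is a landmark and not a map of the deletion. The primers, 5′ to 3′, were as follows.
genotyping forward: tgcctgttggaaggatgatctgg
genotyping reverse: ctccttcctcttgtctcctgtgtgg
qRT-PCR forward: aggccgcctacctgtatctt
qRT-PCR reverse: aggtgctgtaggaggtggtg

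Some members have their promoter in the RefSeq promoter table (GRCm38.p6). For these the 250 bases before the transcription start site (TSS) are shown on the strand of the gene. On them lie the strongest promoter peak of the family and the one whose rank by fold within the lists varied most. The table had 2 entries for Arid3b, of which the one under the summits is shown, 1 for Arid3c and 0 for Arid3a. The Arid3b sequence is chr9:57836780-57837029 and the Arid3c sequence chr4:41731143-41731392, both on the minus strand. Capitals mark the SP box (GGGCGG or its complement CCGCCC) and the KLF box (CCACCC).
Arid3b promoter: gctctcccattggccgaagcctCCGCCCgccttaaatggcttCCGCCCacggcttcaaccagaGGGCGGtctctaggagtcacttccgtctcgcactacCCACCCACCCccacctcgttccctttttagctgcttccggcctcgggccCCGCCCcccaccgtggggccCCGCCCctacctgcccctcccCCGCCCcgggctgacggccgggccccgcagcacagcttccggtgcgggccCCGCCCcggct
Arid3c promoter: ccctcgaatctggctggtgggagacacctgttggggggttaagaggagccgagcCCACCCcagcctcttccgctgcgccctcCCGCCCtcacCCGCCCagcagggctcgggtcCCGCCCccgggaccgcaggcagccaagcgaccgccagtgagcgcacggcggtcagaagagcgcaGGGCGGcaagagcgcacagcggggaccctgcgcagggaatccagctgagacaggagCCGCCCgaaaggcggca

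Both promoters were rich in G and C, at 72.8% in Arid3b and 72.0% in Arid3c against a median of 52.4% over the 32851 promoters of the table. The Arid3b sequence held 7 SP boxes and 2 overlapping KLF boxes, and the Arid3c sequence held 5 SP boxes and 1 KLF box. At least 1 SP box was present in 32.7% and at least 1 KLF box in 28.1% of all promoters of this length. Neither promoter held the ARID3 motif (ATCAAA or ATTAAA), which was present in 20.9% of promoters. These matches of letters on either strand describe the sequence and are not bound sites.

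The sequences of the intragenic peaks called in all 6 samples are shown because they are the accessible sites of the family that the annotated promoters do not account for. Each is 201 bases of the plus strand centred on the commonest summit, chr10:79937123-79937323 for Arid3a peak 5 in intron 3 and chr9:57831479-57831679 for Arid3b peak 2 in intron 2. Capitals mark every motif match.
Arid3a peak 5: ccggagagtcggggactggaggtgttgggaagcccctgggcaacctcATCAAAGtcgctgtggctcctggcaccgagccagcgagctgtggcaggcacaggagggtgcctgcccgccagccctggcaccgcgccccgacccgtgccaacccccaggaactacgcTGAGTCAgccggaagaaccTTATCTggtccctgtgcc
Arid3b peak 2: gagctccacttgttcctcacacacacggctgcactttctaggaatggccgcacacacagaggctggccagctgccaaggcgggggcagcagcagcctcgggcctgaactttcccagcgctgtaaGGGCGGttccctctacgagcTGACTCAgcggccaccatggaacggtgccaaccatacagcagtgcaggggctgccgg

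Both windows held 1 AP-1 motif, TGAGTCA in Arid3a peak 5 and TGACTCA in Arid3b peak 2, a motif found in 8.14% of the summit windows of all 71286 consensus peaks. The Arid3a window also held ATCAAA at bases 48 to 53, the ARID3 motif, which lies within ATCAAAG at bases 48 to 54, the complement of the TCF motif CTTTGAT. These motifs were present in 16.2% and 3.53% of all summit windows. A GATA motif (TTATCT, complement of AGATAA, present in 12.8% of all windows) stood at bases 184 to 189. The Arid3b window held 1 SP box (17.8% of all windows) and no ARID3 motif. Over the summit windows of 15 of the 16 consensus peaks, all but the Arid3a promoter peak, the ARID3 motif was found in 2, AP-1 in 2, GATA in 2, KLF in 5 (19.4% of all windows), SP in 7, HNF4 (CAAAGTCCA or CAAAGTTCA) in 1 (2.53% of all windows) and TCF in 1. The CDX (TTTATGG), SMAD (GTCTAGAC) and CTCF motifs were found in 0 of 15, against 3.86%, 0.196% and 5.69% of all windows.

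All 3 genes had a promoter peak, with a summit within 1000 bp before or 100 bp after a TSS, in 6 of 6 samples, as did 44.6% of the 21938 protein-coding genes. Of the 16 consensus peaks, 9 were called in all 6 samples, against 45.9% of all consensus peaks. None of the 16 was called in 3 of 3 samples of one genotype and 0 of 3 of the other, a pattern shown by 0.575% of all consensus peaks. The other 7 were each called in 1 to 4 samples, and peak 3 of Arid3a and peak 3 of Arid3b, called in 1 sample each, were the ones seen in a single genotype.

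**Figure D1:**
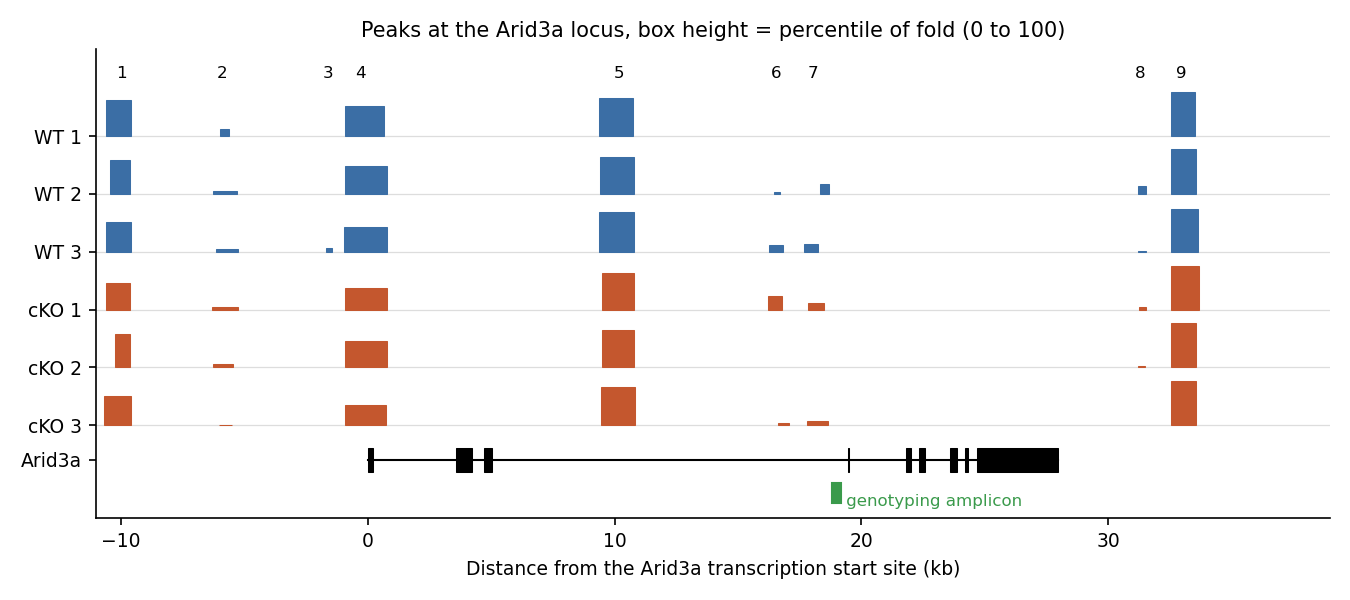
Peaks at the Arid3a locus in each sample, by distance from the TSS in kb. Box width is the extent of a peak and box height the percentile of its fold within the list of that sample (0 to 100), black boxes are the 9 exons, the green box is the genotyping amplicon, and the numbers above name the consensus peaks. The promoter peak (4) and the intron 3 peak (5) stand in all 6 samples, and no box lies over the gene from the amplicon to its end.

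The Arid3a locus held 4, 7 and 9 peaks in WT 1, WT 2 and WT 3, against 8, 6 and 6 in cKO 1, cKO 2 and cKO 3. The mean was 6.67 in both genotypes (SD 2.52 in WT and 1.15 in cKO, n = 3, exact two-sided permutation p = 1, whose smallest possible value is 0.1). Peak numbers did not overlap between genotypes at 1.23% of the 17141 protein-coding genes with a peak, and at none of the 3 members.

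The Arid3a promoter peak was wide and of middling fold. It covered 1565, 1671 and 1721 bp in WT 1, WT 2 and WT 3, against 1703, 1711 and 1643 bp in cKO 1, cKO 2 and cKO 3. The width was above that of 93.6% to 96.7% of the peaks in the same list. Its summits lay between positions -372 and -32 bp relative to the TSS. The deposited fold is the height of the summit over the local background, after a constant is added to each. It was 6.48, 7.41 and 6.55 in WT and 5.93, 6.53 and 5.54 in cKO samples.

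Because each list was called on its own, fold was compared as its percentile among all peaks of the same list. The Arid3a promoter peak stood at 64.7, 61.1 and 54.4 in WT 1, WT 2 and WT 3, against 46.5, 56.7 and 43.7 in cKO 1, cKO 2 and cKO 3. The cKO samples were lower on the mean, but cKO 2 was above WT 3, so the groups overlapped. WT 1 and cKO 2, which had the shortest lists (40492 and 46415 peaks), were each the highest of their genotype. The part of list length was not tested, apart from shortening the lists as given below. The mean was 60.1 ± 5.21 in WT and 49.0 ± 6.87 in cKO (SD, n = 3), a difference of -11.1 points (exact permutation p = 0.2). In the fit over all 32748 consensus peaks called in all 6 samples, limma gave a difference of -0.28 ± 0.21 (SE) on the normal score of the rank, with an adjusted p of 0.773. A difference as low or lower was carried by 8.25% of those peaks.

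The fragment counts behind that fold differed between samples of the same genotype. The summit held 53, 67 and 75 fragments in WT and 102, 52 and 82 in cKO samples. The local background, which the peak caller takes from the surrounding sequence, was 7.33, 8.18 and 10.6 fragments in WT and 16.4, 7.12 and 14.0 in cKO samples, so cKO 1 and cKO 3 had the highest values of both and cKO 2 the lowest. Ranked by summit fragments alone, the peak differed by -0.66 points between genotypes in place of -11.1, and it differed by -2.21 points ranked by -log10 q and by -17.0 points with every list shortened to the length of the shortest. Of the 4059 peaks called in all 6 samples whose width percentile averaged at least 90, 83.8% were lower in cKO on the mean, with a median of -4.63 points, against 50.7% and -0.09 points for all peaks. The bound of 90 was chosen after these values were seen. A share of 13.2% of these wide peaks had a lower difference than the Arid3a promoter. The part of peak width or local background in the Arid3a value was not tested.

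**Figure D2:**
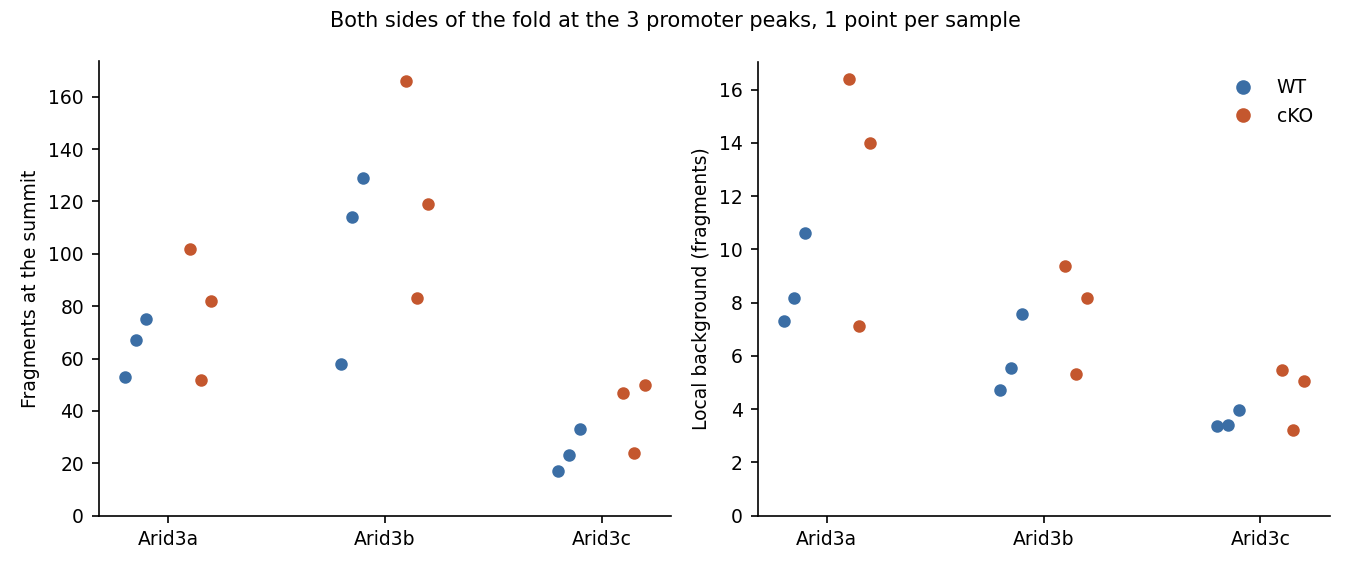
Fragments at the summit (left) and in the local background (right) at the promoter peaks of Arid3a, Arid3b and Arid3c, 1 point per sample, WT in blue and cKO in orange. At Arid3a the cKO samples reach 102 fragments at the summit and 16.4 in the background, and the genotypes overlap in every column.

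Within the gene, Arid3a peak 5 was the most prominent site and lay in intron 3, 10180 bp from the TSS at its median summit. Intron 3 spans 14406 bp. The summit was at the same base, 79937223, in WT 2, WT 3, cKO 1 and cKO 3. The peak held 84, 137 and 210 fragments at its summit in WT 1, WT 2 and WT 3, against 224, 111 and 164 in cKO 1, cKO 2 and cKO 3. The percentile of fold was 81.3, 79.2 and 84.8 in WT and 79.4, 81.0 and 82.5 in cKO samples. These values overlapped closely, with means of 81.7 ± 2.81 and 81.0 ± 1.55 (SD, n = 3, exact permutation p = 0.7, limma adjusted p = 0.964).

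The fold of peak 5 stood above that of the promoter peak in every sample, so the highest-ranked site inside or at the start of Arid3a was intronic. Its width percentile was 90.4, 92.4 and 91.5 in WT and 86.0, 88.9 and 86.8 in cKO samples. All cKO values were below all WT values, with a difference of -4.20 points (exact permutation p = 0.1, the smallest possible). Of the 9 peaks called in all 6 samples, 1 (this peak) had width percentiles that did not overlap between genotypes, against 10.3% of all such peaks in the genome. In bp the widths of peak 5 were 1359, 1392 and 1422 in WT and 1326, 1289 and 1368 in cKO samples, which overlapped (exact permutation p = 0.2), so the separation was seen on the percentile scale and not in bp. None of the 9 had non-overlapping percentiles of fold, against 11.7% of all peaks (7.04% with cKO lower).

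Weaker peaks 6 and 7 lay farther along intron 3, and each was called in WT 2, WT 3, cKO 1 and cKO 3. The annotated start nearest to peak 7 was an Arid3a start inside the gene. The summit of peak 7 stood at -607 bp from that start in WT 2. In WT 3, cKO 1 and cKO 3 it stood more than 1000 bp before that start. Promoter peaks of Arid3a were counted at the TSS where the gene begins, so peak 7 was not counted as one. The summit of peak 6 held 16 and 20 fragments in WT 2 and WT 3, against 24 and 13 in cKO 1 and cKO 3. Peak 7 held 21 and 19 in WT 2 and WT 3 and 17 and 15 in cKO 1 and cKO 3. Their percentiles of fold were 4.54 to 30.3 and 9.45 to 21.7. The samples without them, WT 1 and cKO 2, had the shortest lists, at 40492 and 46415 peaks against 50704 to 58297 in the others, and the part of list length was not tested.

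Peak 7 is the peak nearest to the genotyping amplicon, its closest edge 105 bp before it and its summits 185 to 886 bp before it. From the start of the amplicon to the end of the gene, 9162 bp that hold 6 of the 9 exons, 0 of the 6 lists had a peak. Peak lists therefore gave no value over exons 4 to 9 in either genotype, and a loss of DNA there could not be seen from them.

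The other peaks of the Arid3a locus belonged to neighbouring genes or to no annotated start. Peak 1, on start sites of R3hdm4 and Kiss1r (the kisspeptin receptor), straddled the edge of the locus, with its summit inside in 3 samples. It stood at 77.4, 72.9 and 63.2 in WT and 58.2, 73.2 and 62.6 in cKO samples (difference -6.52 points, exact permutation p = 0.3). Peak 2, on another R3hdm4 start within Kiss1r, was weak, at 16.0, 7.27 and 5.43 in WT and 5.35, 6.56 and 1.58 in cKO samples (difference -5.06 points, exact permutation p = 0.2).

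Both upstream peaks were on the mean lower in cKO samples, but in each the genotypes overlapped, and limma gave adjusted p = 0.823 and 0.773. Peak 9, on the promoter of Wdr18, whose product takes part in ribosome assembly, was the highest-ranked peak of the locus. It stood at 94.3, 97.3 and 92.8 in WT and 93.7, 96.5 and 96.7 in cKO samples (difference 0.84 points, exact permutation p = 0.7, limma adjusted p = 0.927). Peak 3, at -1600 bp from the Arid3a TSS, was called in WT 3 alone, and peak 8, past the end of the gene, was called in WT 2, WT 3, cKO 1 and cKO 2.

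**Figure D3:**
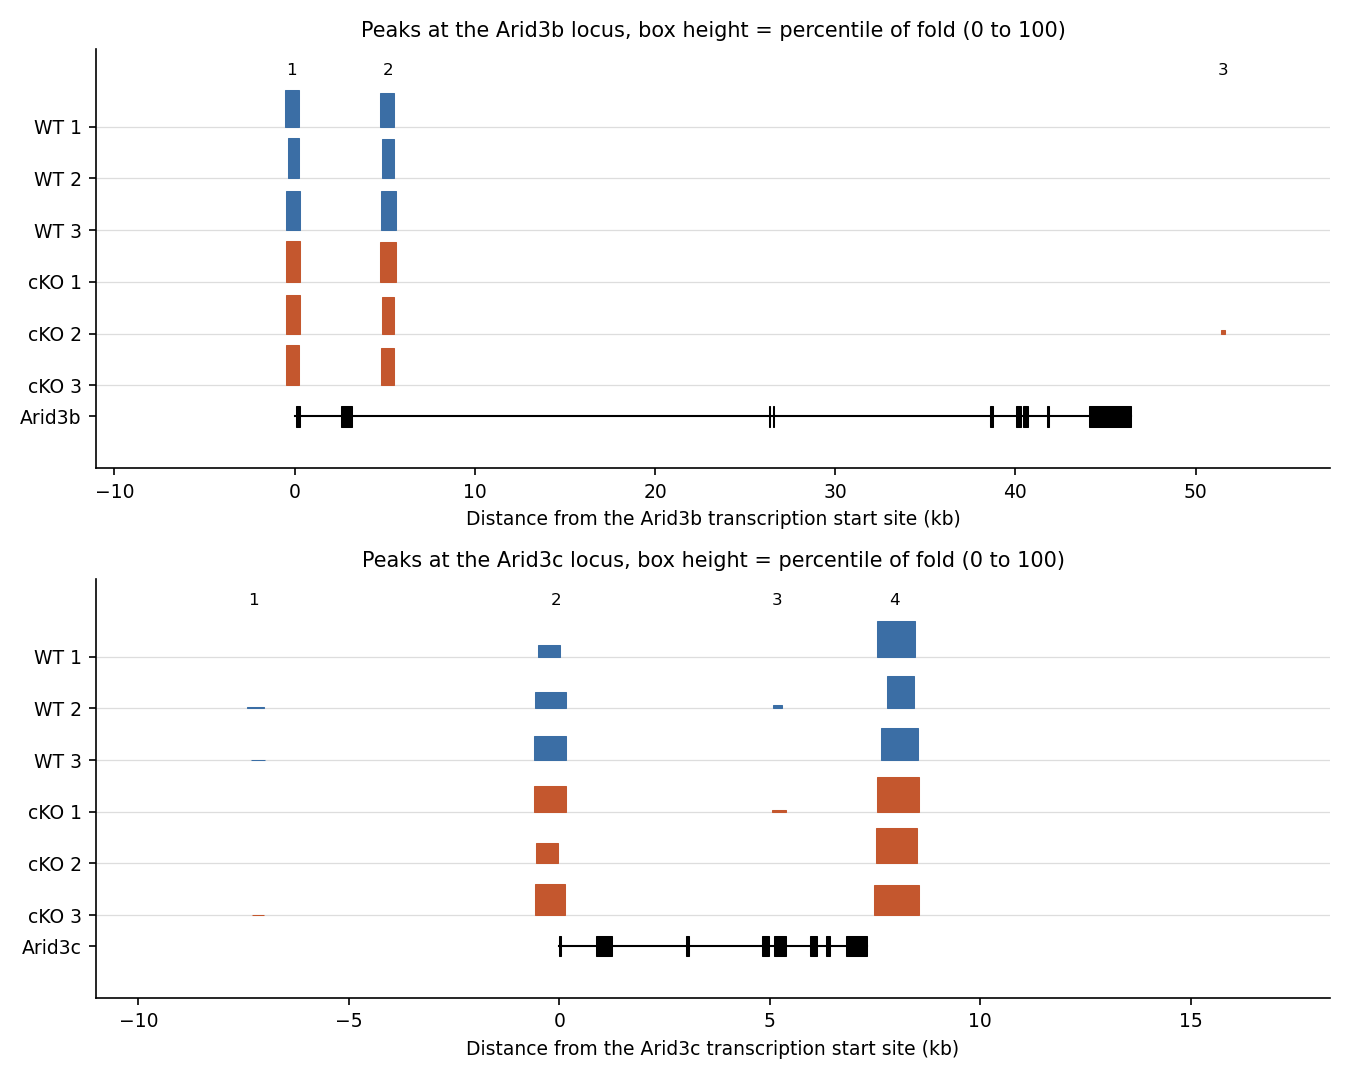
Peaks at the Arid3b (top) and Arid3c (bottom) loci in each sample, by distance from the TSS in kb in the direction of transcription. Box width is the extent of a peak, box height the percentile of its fold (0 to 100), and black boxes are the exons of 1 transcript. At Arid3b only the promoter peak and the intron 2 peak stand in all 6 samples, and at Arid3c the promoter peak is lower than the Dctn3 promoter peak (4) in 5 of 6 samples.

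Arid3b (ENSMUSG00000004661.15, chr9:57790353-57836793, minus strand) had the strongest promoter of the family. The locus held 2 peaks in each sample, apart from cKO 2 with 3 (exact permutation p = 1). The promoter peak stood at percentiles of 89.4, 98.4 and 95.5 in WT 1, WT 2 and WT 3, against 98.9, 92.6 and 97.2 in cKO 1, cKO 2 and cKO 3. WT 1 was lowest and cKO 1 highest, and the genotypes overlapped. The means were 94.4 ± 4.61 in WT and 96.2 ± 3.29 in cKO (SD, n = 3, difference 1.79 points, exact permutation p = 0.6, limma adjusted p = 0.860).

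The Arid3b promoter peak held 58, 114 and 129 fragments at its summit in WT and 166, 83 and 119 in cKO samples. Its summits lay between -218 and -166 bp of the TSS, on the sequence printed above. Both common peaks of the Arid3b locus were called in both genotypes.

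The remaining common Arid3b site, peak 2, lay in intron 2 of transcript ENSMUST00000171444.7, 5214 bp from the TSS, and also inside an annotated antisense gene, Gm17231. It stood at 82.4, 94.9 and 95.5 in WT and 96.6, 88.8 and 89.4 in cKO samples. WT 1 was again lowest and cKO 1 highest. The difference was 0.66 points (exact permutation p = 0.8, limma adjusted p = 0.993). The intronic site was thus about as prominent in its list as the promoter, and in WT 3 it was marginally above it, at 95.54 against 95.51. Peak 3, past the end of the gene, was called in cKO 2 alone with 12 fragments.

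Arid3c (ENSMUSG00000066224.13, chr4:41723836-41731142, minus strand) lies within the span of Il11ra1, which encodes an interleukin 11 receptor chain on the opposite strand. The locus held 2, 4 and 3 peaks in WT and 3, 2 and 3 in cKO samples (exact permutation p = 1). Its promoter peak was the most variable of the family in percentile of fold, given below. In fold itself the Arid3b promoter peak varied more, with SD 3.71 in WT and 1.70 in cKO, against 1.37 and 1.27 at Arid3c. The Arid3c promoter peak held 17, 23 and 33 fragments at its summit in WT 1, WT 2 and WT 3, against 47, 24 and 50 in cKO 1, cKO 2 and cKO 3. Its summits lay between -365 and -49 bp of the TSS, those of WT 3 and cKO 2 beyond the sequence printed above.

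The Arid3c promoter peak stood at percentiles of 28.3, 40.6 and 57.3 in WT and 61.9, 50.2 and 75.4 in cKO samples. The cKO samples were higher on the mean, but cKO 2 was below WT 3. WT 1 and cKO 2, with the shortest lists, were the lowest of their genotype here and at the Arid3b promoter. With every list shortened to the shortest the Arid3c difference was 20.3 points, and the part of list length was not tested further. The means were 42.1 ± 14.5 in WT and 62.5 ± 12.6 in cKO (SD, n = 3), a difference of 20.4 points (exact permutation p = 0.2). In limma the difference was 0.54 ± 0.26 (SE) on the normal score, with an adjusted p of 0.773 over all peaks (0.064 unadjusted). Of all peaks called in all 6 samples, 97.4% had a lower difference.

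Its local background was 3.38, 3.42 and 3.96 fragments in WT and 5.47, 3.23 and 5.05 in cKO samples, so summit and background were both highest in cKO 1 and cKO 3. Ranked by summit fragments alone the difference was 15.7 points, and without WT 1, the lowest sample, it was 13.5 points. As at the other loci, a higher rank from more cells with the site open and from more opening in each cell cannot be told apart in these bulk samples.

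**Figure D4:**
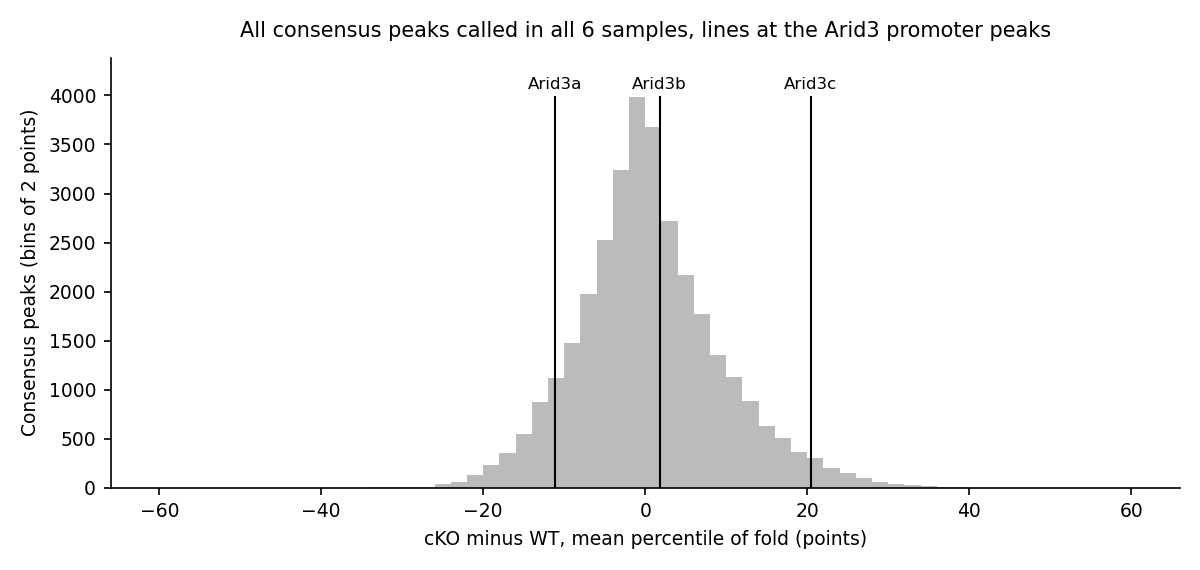
Difference in mean percentile of fold, cKO minus WT, over all 32748 consensus peaks called in all 6 samples (bars, bins of 2 points), with lines at the promoter peaks of Arid3a, Arid3b and Arid3c. The lines stand at -11.1, 1.79 and 20.4 points, inside a distribution with 5th and 95th percentiles of -13.3 and 16.6 for Arid3a and Arid3b and beyond the upper one for Arid3c.

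The other Arid3c peaks lay at neighbours or were rare. Peak 4, on the promoter of Dctn3 (a dynactin subunit), stood at 85.2, 79.0 and 77.7 in WT and 84.4, 85.5 and 72.2 in cKO samples, with a difference of 0.07 points (exact permutation p = 1, limma adjusted p = 0.987). Its summit held 57, 58 and 71 fragments in WT and 108, 65 and 78 in cKO samples. Over the estimated coverage this was 27.0, 31.9 and 35.3 in WT and 47.2, 37.1 and 35.8 in cKO samples, all cKO values above all WT values (exact permutation p = 0.1). The peak was also wider in bp in every cKO sample, at 901, 632 and 882 bp in WT and 990, 975 and 1060 bp in cKO samples (exact permutation p = 0.1), whereas its width percentiles overlapped, at 69.8, 52.7 and 68.0 in WT and 69.5, 75.2 and 72.2 in cKO samples. Of the 9 family peaks called in all 6 samples, 1 (this peak) did not overlap between genotypes in summit fragments over coverage, against 3.21% of all such peaks, and 1 (this peak) in width in bp, against 11.9%. Both counts were added after the values were seen.

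Peak 1, in the Il11ra1 span before Arid3c, was called in WT 2, WT 3 and cKO 3 at percentiles of 0.66 to 3.03. Peak 3, in exon 5 of Arid3c, was called in WT 2 and cKO 1 with 20 and 29 fragments.

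Within a sample, the promoter order of the family was the same at the top and changed below it. Arid3b was highest in all 6 samples, at 89.4 to 98.9 against 28.3 to 75.4 for the others. Arid3a stood above Arid3c in WT 1, WT 2 and cKO 2, and Arid3c above Arid3a in WT 3, cKO 1 and cKO 3. The former samples had lists of 40492 to 50704 peaks and the latter of 51464 to 58297. Neither the order of these genes nor the part of list length in it was tested. Among the 11 other ARID-domain genes in the annotation that were examined, 11 had a promoter peak in every list. For these a peak had only to touch the promoter window. The share of 44.6% of protein-coding genes given above is for summits inside the window, so it is not a like measure.

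**Figure D5:**
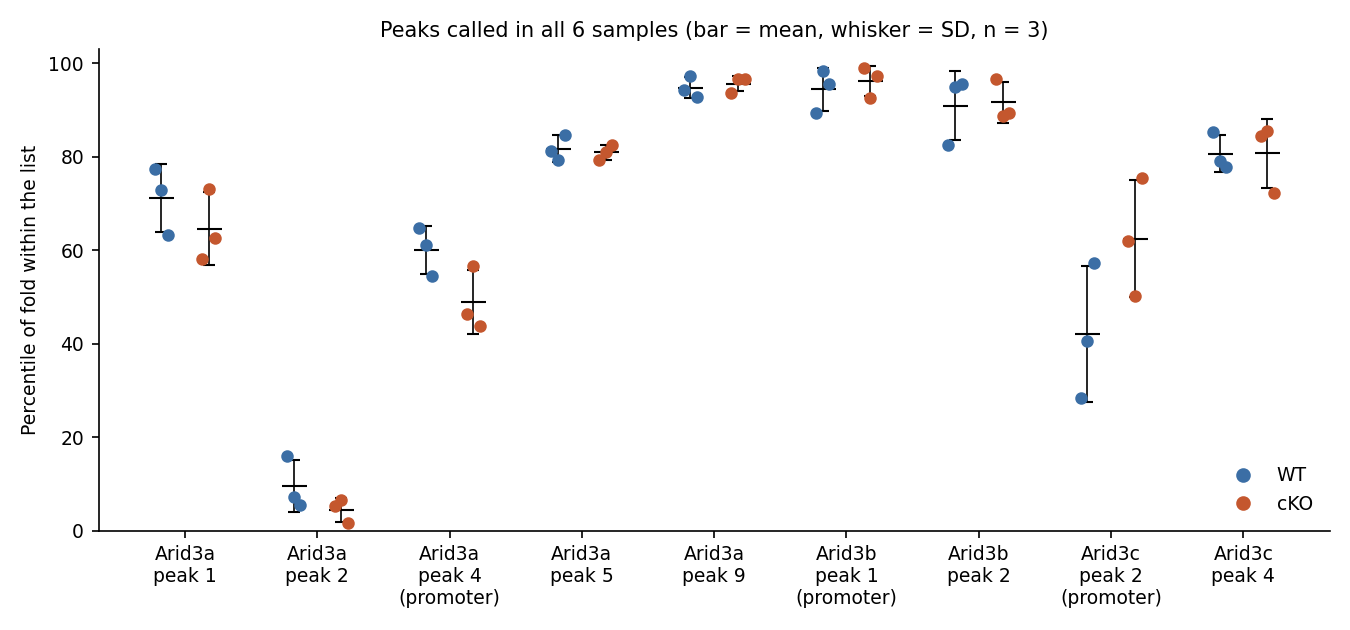
Percentile of fold within the list for the 9 peaks of the family called in all 6 samples, 1 point per sample, WT in blue and cKO in orange, with the mean (bar) and SD (whisker, n = 3). The genotypes overlap at every peak, and their means are farthest apart at the Arid3c promoter, 42.1 and 62.5.

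The fit covered the 32748 consensus peaks called in all 6 samples, 45.9% of all, and gave no count for the others. It compared ranks within lists, whereas the study tested counts per peak, an unlike measure. At an adjusted p below 0.05 limma called 0 of these 32748 peaks, which is 0.0%. The lowest adjusted p was 0.773, and ranking by summit fragments called 2. By fold, 1894 peaks (5.78%) had an unadjusted p below 0.05. Each of the 9 member peaks therefore belongs to a set in which no peak passed. With 3 samples per genotype a rank difference of the size seen at Arid3a or Arid3c could not be told from the spread between samples, and these values do not show that the loci were alike in WT and cKO crypts.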

How the data were processed

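ATAC-seq peak lists of 3 WT and 3 Arid3a cKO crypt samples were used. By the study's methods, the authors ran the nf-core ATAC-seq pipeline on GRCm38 with an Ensembl annotation, removed blacklisted regions and called narrow peaks per sample with MACS2 (named with bedtools in the submitters' processing notes). The deposited fold is the ratio of summit height to the background nearby, after a constant is added to each. The deposited −log10 p and −log10 q values rest on a Poisson model. The score deposited by the authors follows from q. The authors' fragment counts per peak were not used here.

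Only peaks on the autosomes and sex chromosomes were used (61 to 92 per list were left out). The whole number of fragments at each summit, and the local background, were solved from fold and p. Fold was taken here as the ratio of the former to the latter after 1 was added to each. Of the values, 100% came out within 0.05 of a whole number. Coverage was set to the commonest background of a list. This depth is an inference, since read totals were not used here. Peaks were ranked within a list by fold, as percentiles, and lists were merged by at least 1 shared base. Normal scores of the rank were fitted by limma 3.58.1 (R 4.3.3) over all consensus peaks called in all 6 samples, with Benjamini-Hochberg adjustment and a threshold of 0.05. Exact permutation tests of 3 against 3 were two-sided. The fit and the solving of fragments were tested on simulated data. Scripts used Python 3.11.15, scipy 1.17.1 and pysam 0.24.0. Genes came from GENCODE M21, the genome and promoter sequences from RefSeq (GRCm38.p6), and primers from the study's primer list. Coordinates are 1-based. A promoter peak of a marker or other ARID gene was any peak touching the window from 1000 bp before to 100 bp after a TSS. All 16 consensus peaks with a summit in a locus are accounted for, those called in all 6 samples with the percentile of fold in every sample. Neighbouring genes are named where a summit lay in them or within 1 kb of their TSS. The members, marker lists, motifs and alternatives were chosen with earlier results of these data known.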

Additional observations from a re-analysis of the deposited data

How the results depend on the processing

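The rank comparisons of the 9 peaks called in all 6 samples were repeated under 14 alternatives, which gave 124 values, and 0 of them reached an adjusted p below 0.05 (lowest 0.305). Direction was kept in 105. These include the replicate block, which uses the same ranks as reported above, so its direction could not turn. Direction turned in 19, some of them with a sample left out, whose ranges are given below. With all samples in, it turned for Arid3a peak 1 (0.30 points ranked by -log10 q and 0.72 by summit fragments). At Arid3a peak 5 the difference was 0.54 ranked by -log10 q and 0.23 with peaks of -log10 q of at least 5. At Arid3b peak 2 it was -0.37 with lists of equal length and -0.44 ranked only among peaks called in all 6 samples. On log2 fold after quantile normalization that peak gave -0.013. Arid3c peak 4 gave -0.99, -0.72 and -0.013 under the same 3. The Arid3a promoter was lower in cKO samples under 14 of 14 alternatives and the Arid3c promoter higher under 13 of 13. Both counts include the replicate block, and fixed windows around summits left the Arid3a difference at -11.1 points. All alternatives reuse the same samples, so these counts are not independent support.

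With each sample left out in turn, the difference ran from -15.0 to -8.47 points at the Arid3a promoter, from -0.73 (without WT 1) to 3.78 at the Arid3b promoter and from 13.5 (without WT 1) to 28.0 (without WT 3) at the Arid3c promoter. It ran from -10.8 (without cKO 2) to -3.28 (without cKO 1) at Arid3a peak 1, where it was -10.5 without WT 3 and -3.38 without WT 1, from -7.12 (without WT 3) to -1.86 (without WT 1) at Arid3a peak 2, from -2.06 to 0.72 (without WT 3) at Arid3a peak 5, from -0.17 (without WT 3) to 2.12 at Arid3a peak 9, from -3.61 (without WT 1) to 2.95 at Arid3b peak 2 and from -2.33 (without cKO 2) to 4.32 (without cKO 3) at Arid3c peak 4. The difference in the number of peaks ran from -1.33 (without WT 1) to 1.17 (without WT 3) at the Arid3a locus, from 0.0 (without cKO 2) to 0.5 at Arid3b and from -0.83 to 0.17 (without WT 2) at Arid3c. The exact p for peak numbers at the 3 loci was 0.3 or above under all 33 alternatives.

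Samples with the same number did not deviate together (r = -0.27, -0.02 and 0.13 for numbers 1, 2 and 3), so the numbers were not taken as pairs. With the replicate number as a block in limma, adjusted p was 0.879 at the Arid3a, 0.913 at the Arid3b and 0.879 at the Arid3c promoter. In that fit 0 peaks passed, and 1411 in place of 1894 had an unadjusted p below 0.05. Within the gene bodies alone, 2 of 5 consensus peaks were called in all 6 samples, in place of 9 of 16. Ranking by summit fragments called 2 of the fitted peaks in place of 0. The ranking among common peaks was chosen after seeing the data. So were, for the count over all fitted peaks, the ranking by summit fragments and that by fixed windows around summits. With these windows the Arid3c promoter peak, and with lists of equal length Arid3a peak 2, was not joined in all 6 samples and gave no value. Fragments at the summits of the member peaks numbered 12 to 294, and the part of depth in the calls was not tested.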
